A study of Homo sapiens with 6 samples.

Results

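The OAS and MX genes encode 2 small families of interferon-induced antiviral proteins, and their 6 members OAS1, OAS2, OAS3, OASL, MX1 and MX2 were followed here from A431CT to Dsg2KO cells. The members were chosen by name, with earlier results of these data known, and all 6 were found among the 21462 genes of the deposited count table. A431 is a human epidermoid carcinoma line with keratinocyte features. The A431CT libraries come from control A431 cells with the WT genotype. The Dsg2KO libraries come from A431 cells in which DSG2, the gene of the desmosomal cadherin Desmoglein-2, was targeted with CRISPR/Cas9, and the labels give no further treatment. Polyadenylated RNA was sequenced from 3 biological replicates of each condition, and whether the edited line is a single clone is not given in the sources used here. At the level of bulk RNA, a change in every cell and a change in a fraction of the cells cannot be told apart.

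OAS proteins sense double-stranded RNA. OAS1, OAS2 and OAS3 then join ATP into short 2'-5'-linked oligoadenylates (2-5A), second messengers that trigger RNA decay, whereas OASL lacks this activity and carries a ubiquitin-like tail. MX1 and MX2 are dynamin-like GTPases that block virus multiplication after entry. MX1 (MxA) is known for its action on influenza viruses and other RNA viruses, and MX2 (MxB) for its action on HIV-1 and herpesviruses at the nucleus. Genes of both families are classical targets of ISGF3, the transcription factor complex with STAT2 and IRF9 that binds interferon-stimulated response elements (ISRE) after type I or type III interferon has reached its receptor.

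The members occupy 3 places in the genome (GRCh38, GENCODE version 44). OAS1 (chr12:112905856-112933219), OAS3 (chr12:112938051-112976460) and OAS2 (chr12:112978395-113011723) form a cluster on the plus strand, and OASL lies apart on the minus strand (chr12:121017763-121039246). MX2 (chr21:41361999-41409393) and MX1 (chr21:41420020-41470071) are neighbours on the plus strand of chromosome 21. An antisense lncRNA without a symbol overlaps OAS1, OAS3 and OAS2, another overlaps MX1, and neither is in the count table. The TMPRSS2 gene overlaps the end of MX1 on the opposite strand and had a count of 0 in every library. Whether the counting used strand is not given in the sources used here, so reads of the antisense RNAs and of the members cannot be told apart.

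RefSeq promoters (GRCh38.p14, 250 bases before to 50 after each start) were matched for 3 of the 6 members: OAS1 with 1 start, OAS3 with 1 and MX1 with 3. Those of OAS2, OASL and MX2 were not matched. The last 150 bases before the start are shown for OAS1, for OAS3 and for the second MX1 start, as examples of windows with paired GAAA repeats, the building block of the ISRE. The repeats are in capitals, as GAAANNGAAA or GAAANGAAA, or as their complement on the other strand.

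OAS1, chr12:112906812-112906961, plus strand: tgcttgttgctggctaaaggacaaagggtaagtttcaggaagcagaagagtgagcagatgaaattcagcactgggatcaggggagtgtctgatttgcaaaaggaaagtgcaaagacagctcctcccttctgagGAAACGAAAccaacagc
OAS3, chr12:112938324-112938473, plus strand: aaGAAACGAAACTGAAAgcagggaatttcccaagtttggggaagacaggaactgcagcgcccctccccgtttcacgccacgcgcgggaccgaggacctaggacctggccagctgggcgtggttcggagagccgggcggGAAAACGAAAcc
MX1, second start, chr21:41426089-41426238, plus strand: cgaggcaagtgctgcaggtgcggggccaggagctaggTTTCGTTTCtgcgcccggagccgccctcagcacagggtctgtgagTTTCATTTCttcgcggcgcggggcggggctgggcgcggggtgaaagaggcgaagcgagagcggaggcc

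The first MX1 start has 1 such repeat before it, on the other strand at bases -19 to -11, and 2 overlapping repeats just inside the transcript, in the 15 bases GAAATGAAACCGAAA (chr21:41420564-41420578, bases 6 to 20 counted from 0 at the first transcribed base). The ISRE core GAAANNGAAA was found at 2 places in the OAS3 window and also at the first and the third MX1 start, on either strand, and not in the OAS1 window or at the second MX1 start. Of the 35116 promoters in the RefSeq table, 3.57% hold this core. The more closely spaced GAAANGAAA, whose matches can overlap those of the core, was found in the windows of OAS1, OAS3 and the first and second MX1 starts, and in 3.12% of all promoters. It was searched after the sequences had been seen. Either form, as marked in capitals above, was in 6.4% of all promoters. The core TTCNNNGAA of the GAS element, an interferon γ-activated site, was found for OAS1 and for the third MX1 start, and in 7.66% of all promoters. The NF-κB motif GGGANNTTCC was found in the OAS3 window only among the windows of these 3 genes, on both strands at overlapping positions, and in 1.61% of all promoters. A match is a run of letters and no measurement of binding.

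Library totals lay between 12845719 and 16255692 counts, with the Dsg2KO libraries deeper than the A431CT libraries, and a count of 3 corresponded to between 0.184 and 0.236 CPM (counts scaled to a common library size with edgeR's TMM factors). DSG2 itself fell from 323 ± 6.08 CPM (SD, n = 3) to 51.9 ± 2.88 CPM (SD, n = 3). The edgeR quasi-likelihood test gave a log2 fold change of -2.64 ± 0.05 (standard error) with an adjusted p of 1.29e-14, so the libraries followed their labels. Of 7 keratinocyte markers 6 had over 3 counts in every library, with a summed level of 9394 to 10076 CPM in A431CT and 10204 to 10609 CPM in Dsg2KO cells, most of it EGFR, while KRT14 was at 2 counts or fewer and KRT6A fell by 1.03 on the log2 scale (adjusted p = 5.62e-04, edgeR). The 4 fibroblast markers summed to at most 0.369 CPM and COL1A2 was at 0 throughout. The 5 leukocyte markers summed to 2.36 to 3.02 CPM in A431CT and 3.15 to 4.82 CPM in Dsg2KO cells, most of it LYZ, with CD3E at 0, and the part of these cells in the members' change was not tested.

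The 6 genes differed between the conditions by graded amounts. MX2 was about 4-fold higher (3.96-fold in the fit), MX1 2.34-fold and OAS2 1.88-fold, OASL and OAS1 were higher by 1.27-fold and 1.26-fold, and OAS3 stood at 0.942 of its A431CT level. A gene was counted as risen or fallen where edgeR's adjusted p-value was under 0.05 and the log2 fold change reached 0.5 in size, the thresholds of the study's methods. By this rule 3 of the 6 members rose (MX2, MX1 and OAS2) and none fell, where 2.99% of the 12857 tested genes rose and 6.03% changed in either direction. By the adjusted p-value alone 5 of 6 passed, all higher, where 29.6% of tested genes passed. All 6 members passed the low-count filter, with over 10 counts in every library of both conditions. The median log2 fold change of all tested genes was -0.0048.

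**Figure D1:**
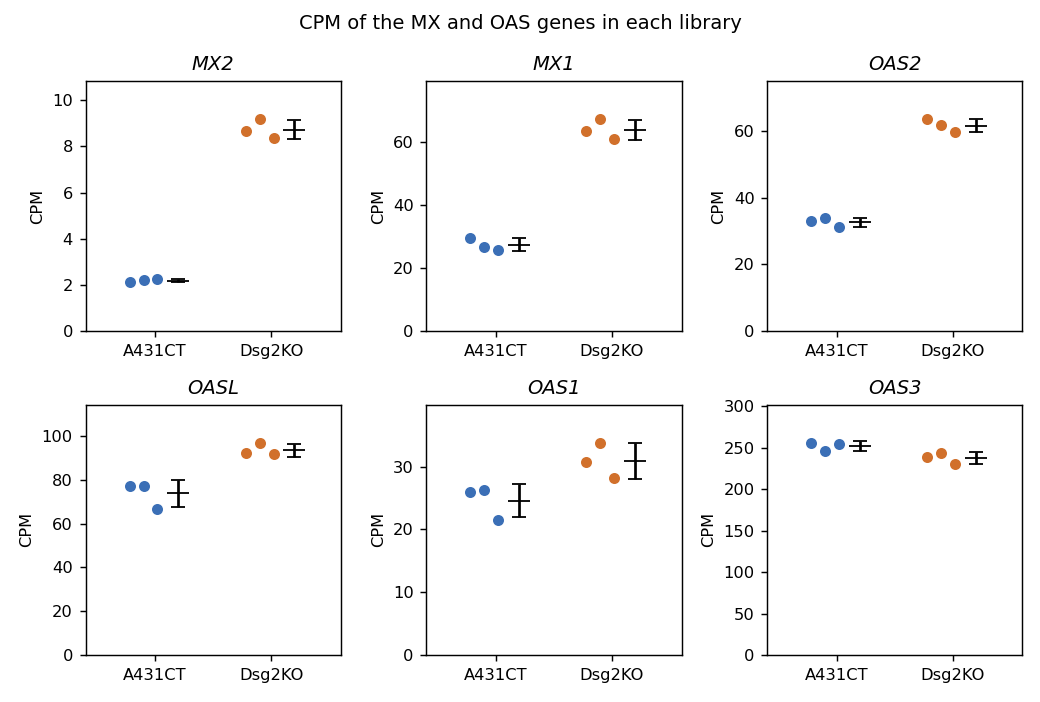
CPM (vertical axes, each starting at 0) of the 6 genes in the 3 A431CT libraries (blue) and the 3 Dsg2KO libraries (orange), with the mean and SD of each condition as a bar. The conditions are far apart for MX2, MX1 and OAS2, close for OASL and OAS1, and OAS3 is slightly lower in Dsg2KO cells.

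Of the GTPases, MX2 had the lowest counts of all members and the largest fold. The A431CT libraries held 27, 30 and 29 reads of it, the Dsg2KO libraries 129, 150 and 135. On the CPM scale these were 2.12, 2.21 and 2.25 against 8.66, 9.18 and 8.35. The lowest Dsg2KO library thus lay far above the highest A431CT library, by 1.83 on the log2 CPM scale. By edgeR its log2 fold change came to 1.99 ± 0.18 (standard error, 95% interval 1.60 to 2.37), with an adjusted p of 1.40e-06.

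For MX1 the A431CT libraries held 378, 362 and 332 counts, the Dsg2KO libraries 945, 1100 and 989. Its level was 29.7, 26.7 and 25.7 CPM in the control libraries and 63.4, 67.3 and 61.1 CPM in the knockout libraries. Every Dsg2KO library was above every A431CT library, with a gap of 1.04 on the log2 CPM scale. MX1 had a log2 fold change of 1.22 ± 0.07 (SE, 95% interval 1.08 to 1.37) and an edgeR adjusted p of 1.38e-08, which placed it at rank 17 of the 12857 genes by p-value.

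Among the synthetases, OAS2, the medium form with a pair of OAS units, was the 1 that passed both thresholds. The libraries held 418, 459 and 403 counts without and 946, 1007 and 964 counts with the knockout, or 32.9, 33.8 and 31.2 CPM against 63.5, 61.6 and 59.6 CPM. The knockout libraries were tightly grouped and well above the controls. OAS2 had a log2 fold change of 0.91 ± 0.06 (SE, 95% interval 0.79 to 1.04) and an edgeR adjusted p of 6.32e-08.

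OAS1, the small form with a single OAS unit, stood at 25.9, 26.3 and 21.6 CPM in the controls against 30.7, 33.8 and 28.1 CPM in the knockout. The conditions did not overlap, but A431CT replicate 3 and Dsg2KO replicate 2 stood at the outer ends and the gap between the groups was 0.10 on the log2 CPM scale. OAS1 had a log2 fold change of 0.33 ± 0.09 (SE, 95% interval 0.13 to 0.52) and an edgeR adjusted p of 0.0134, under the fold change minimum. The fold change was 0.24 when A431CT replicate 3 was left out (adjusted p = 0.0628, edgeR). Leaving out Dsg2KO replicate 2 gave 0.26 (adjusted p = 0.0705, edgeR), so that the call by adjusted p-value rested on those libraries. The adjusted p-values of OAS1 ranged from 0.00225 to 0.0705 over the alternatives.

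OAS3, the large form with 3 OAS units, was the most abundant member by counts, with 3255, 3335 and 3285 in the control and 3558, 3986 and 3726 in the deeper knockout libraries. Scaled to library size, these were 256, 245.9 and 254.7 CPM against 238.7, 243.8 and 230.3 CPM. Each knockout library was thus below each control library, but by a gap of only 0.01 on the log2 CPM scale. OAS3 had a log2 fold change of -0.09 ± 0.04 (SE, 95% interval -0.17 to -0.0032), and it did not pass the edgeR test (unadjusted p = 0.0427, adjusted p = 0.112). The upper end of this interval lies below the lower ends of the intervals of the other 5 members.

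OASL, the catalytically inactive member, was at 77.5, 77.2 and 67.0 CPM without and at 92.3, 97.0 and 91.7 CPM with the knockout. A431CT replicate 3 was again the low control library, and the conditions were apart by 0.24 on the log2 CPM scale. OASL had a log2 fold change of 0.34 ± 0.06 (SE, 95% interval 0.22 to 0.46) and an edgeR adjusted p of 3.98e-04, below the fold change minimum although the adjusted p-value stayed under 0.05 in all 13 alternatives.

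For all 6 members, then, libraries of control and knockout did not overlap, and 5 of them were higher in Dsg2KO cells. This was so for 42.6% of all tested genes in either direction and for 21.2% with Dsg2KO higher, so that the separation alone is common in this comparison.

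The members were also compared with each other. For each of 7 pairs, the 6 pairs of OAS genes and MX2 with MX1, the difference of their log2 CPM was taken within every library, with no prior count, which cancels the scaling of the library. The OAS2 to OAS3 ratio was -2.96, -2.86 and -3.03 without and -1.91, -1.98 and -1.95 with the knockout, a shift of 1.00 on the log2 scale and the largest within the OAS family. OAS2 gained 0.57 on OASL, and OAS1 lost 0.58 against OAS2. The OAS3 to OASL ratio fell by 0.43 on the log2 scale, from 1.77 ± 0.13 to 1.34 ± 0.02 (SD, n = 3). Relative to MX1, MX2 went from -3.64 ± 0.15 to -2.87 ± 0.0009 (SD, n = 3), a shift of 0.77. With 129 to 150 counts of MX2 in the Dsg2KO libraries, counting error exceeds the SD of 0.0009, which is therefore no measure of precision. In 6 of the 7 pairs libraries of control and knockout did not overlap, and each of these had an exact permutation p of 0.10 (two-sided, 0.117 after Benjamini-Hochberg adjustment over 7 pairs), the smallest that 3 against 3 libraries allow. Among all pairs of tested genes with a count in every library, 40.9% did not overlap either, so that separation of a ratio is common in this comparison. The ratio of OAS1 to OASL was the exception, with a shift of -0.01 and overlapping libraries (exact permutation p = 0.80, SD of 0.04 in A431CT and 0.09 in Dsg2KO cells).

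Levels of different genes were compared per kilobase of merged exons. In A431CT cells the order was OAS3 at 14.0 ± 0.304 CPM per kb, OASL at 11.7 ± 0.946, OAS2 at 2.91 ± 0.117, OAS1 at 1.89 ± 0.202, MX1 at 1.52 ± 0.116 and MX2 at 0.151 ± 0.0044 (SD, n = 3 each). The libraries of OAS1 and MX1 nearly met, with 1.66 to 2.02 CPM per kb for OAS1 and 1.43 to 1.65 for MX1. In Dsg2KO cells OASL led at 14.8 ± 0.460 CPM per kb, followed by OAS3 at 13.2 ± 0.377, OAS2 at 5.48 ± 0.173, MX1 at 3.56 ± 0.173, OAS1 at 2.37 ± 0.217 and MX2 at 0.599 ± 0.0288 (SD, n = 3 each). OASL and OAS3 thus exchanged the first place, and MX1 passed OAS1. Summed over the family, the OAS genes were at 30.5 ± 1.16 CPM per kb in A431CT and 35.8 ± 1.10 in Dsg2KO cells (SD, n = 3), and the share of OAS2 in this sum was 9.54% ± 0.212 against 15.3% ± 0.461, whereas that of OAS3 was 45.9% ± 2.22 against 36.7% ± 0.168. The sum of both MX genes was 1.67 ± 0.111 against 4.15 ± 0.202 CPM per kb. With the longest annotated transcript as the length, the levels were higher throughout. MX1 then stood above OAS1 in A431CT cells, and the exchange between OASL and OAS3 remained. In Dsg2KO cells the mean by this length was 11.07 ± 0.538 CPM per kb for MX1 and 10.97 ± 0.346 for OAS2 (SD, n = 3 each). These 2 means differed by less than either SD, so no order of MX1 and OAS2 can be given there.

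**Figure D2:**
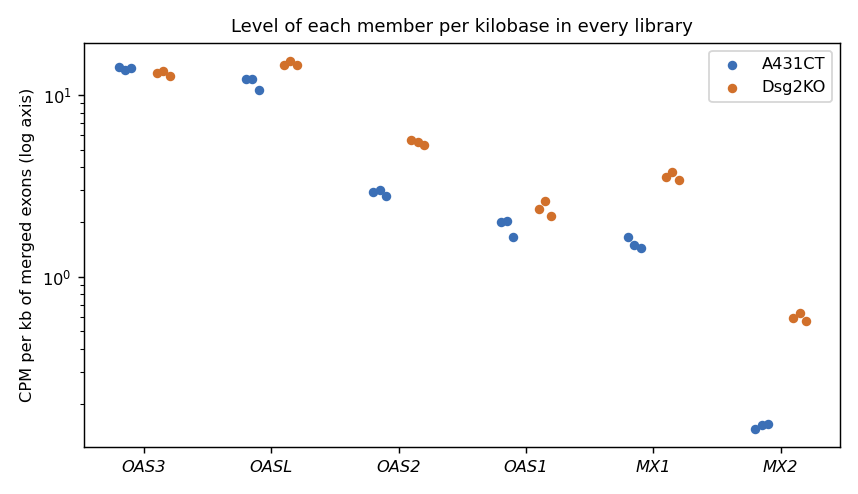
Level per kilobase of merged exons (CPM per kb, log axis) of each member in the 3 A431CT libraries (blue) and the 3 Dsg2KO libraries (orange). OAS3 and OASL lie near the top in both conditions, MX2 lies lowest, and the orange points of OAS2, MX1 and MX2 are clearly above the blue ones.

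Around the OAS synthetases, genes of the 2-5A pathway were listed, among them PDE12, ENPP1 and AKAP7, which encode 2-5A-degrading or related phosphodiesterases, and ABCE1, which encodes an ATP-binding cassette protein of ribosome recycling. ABCE1 was at 0.07 (adjusted p = 0.361, edgeR). None of the 4 tested genes passed both thresholds (median log2 fold change -0.04). PDE12 was higher by the adjusted p-value alone, with a log2 fold change of 0.27 (adjusted p = 0.0054, edgeR). ENPP1 had 6 counts or fewer in every library and was not tested. Of 5 proteins that share the nucleotidyltransferase fold of the OAS enzymes, none passed by either rule: the log2 fold change was 0.02 for the DNA sensor gene CGAS, and the highest was 0.11 for ZFR (adjusted p = 0.0531, edgeR).

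Of the 9 genes of ISGF3 and its regulators, 1 rose, where 2.99% of all tested genes rose. The gene was IRF9, the DNA-binding subunit of ISGF3, with 9, 28 and 23 counts in the control and 77, 145 and 102 in the knockout libraries. All its knockout libraries were above its control libraries, although the spread within each condition was wide, and edgeR put the log2 fold change at 2.15 ± 0.31 (standard error) with an adjusted p of 1.06e-04. An unnamed protein-coding gene on the same strand and an antisense lncRNA overlap IRF9, and neither is in the count table. STAT2 lay just under the fold change minimum at 0.49 (standard error 0.08, adjusted p = 3.00e-04, edgeR) and passed both thresholds in 5 of 13 alternatives, at 0.57, 0.51 and 0.51 without A431CT replicate 2, A431CT replicate 3 and Dsg2KO replicate 2 among them (adjusted p = 1.18e-04 to 0.00254 over leaving out each library, edgeR). IRF1 was at 0.14 with an edgeR adjusted p of 0.0360, and no gene of the list was lower by that rule.

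Messages of the interferons themselves were near or under the floor. IFNA1, IFNL2, IFNK and IFNG had no count in any library, which allows up to 0.184 to 0.236 CPM per library. IFNB1 was at 0 in the control and at 1, 2 and 1 counts in the knockout libraries, IFNL1 had 4 or fewer and IFNL3 at most 1, so that no fold can be given at this depth. IFNE, an epithelial type I interferon, had 5, 5 and 7 counts without and 3, 1 and 5 with the knockout. Of the receptor chains, IFNGR2, the second chain of the interferon γ receptor, rose by 0.72 on the log2 scale (standard error 0.10, adjusted p = 5.33e-05, edgeR). It overlaps TMEM50B on the opposite strand, which had a log2 fold change of 0.41. IFNGR2 lies on chromosome 21, as do MX2 and MX1, whose 20 nearest tested genes had a median log2 fold change of 0.24. The part of such a regional difference in the change of IFNGR2 or of the other receptor chains was not tested. IFNGR1 was at -0.11 (adjusted p = 0.239, edgeR) and IFNAR1, a chain of the type I receptor, at 0.24 (adjusted p = 0.0038, edgeR). Its partner IFNAR2 was counted in 1 library only, with 17 counts in Dsg2KO replicate 1. IL10RB, the shared chain of the type III receptor, had 11 to 32 counts. Both lie on chromosome 21 and overlap the annotated readthrough gene IFNAR2-IL10RB, which is not in the count table.

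Of 7 tested sensors and effectors of double-stranded RNA 2 rose, IFIH1 (MDA5) by 0.62 and DDX58 (RIG-I) by 0.60 on the log2 scale (adjusted p = 1.64e-05 and 4.49e-05, edgeR). Of all tested genes 2.99% rose, a share that applies to the next list as well. The kinase gene EIF2AK2 and the editing enzyme gene ADAR were at 0.14 and 0.16, higher by the adjusted p-value alone, and the adaptor gene MAVS was at -0.04 (adjusted p = 0.503, edgeR). An unnamed protein-coding gene that is not in the count table overlaps DDX58 on the same strand. ZBP1 was at 0 in every library. In the ISG15 conjugation pathway 1 of 5 genes rose, the ligase gene HERC5 by 0.64 (adjusted p = 5.58e-06, edgeR), while ISG15 and its protease gene USP18 were at 0.29 and 0.26 and UBE2L6, its conjugating enzyme gene, at 0.15 (adjusted p = 0.0560, edgeR).

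Related GTPases were also listed. Of 7 dynamin superfamily genes, which act in endocytosis and in fission and fusion of organelles, none passed both thresholds. By the adjusted p-value alone MFN2 and DNM1L were lower, at -0.36 and -0.21, and OPA1 was higher at 0.12. DNM2 was at 0.0013. Of 4 tested interferon-induced guanylate-binding protein genes none passed both thresholds, with GBP4 at 0.26 and GBP3 at 0.23 by the adjusted p-value alone (0.0168 and 0.0022, edgeR) and GBP1 at 0.06. GBP2 was at -0.38 (adjusted p = 0.0809, edgeR) and passed both thresholds without A431CT replicate 3, at -0.53 (adjusted p = 0.0150, edgeR). GBP5 had 12 counts or fewer and was not tested.

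Over all 8 lists, 5 of the 46 tested genes rose, none fell, and the median log2 fold change was 0.07. Of all tested genes 2.99% rose and 6.03% changed in either direction. MX2 and IRF9 were the largest changes in the members and lists together.

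**Figure D3:**
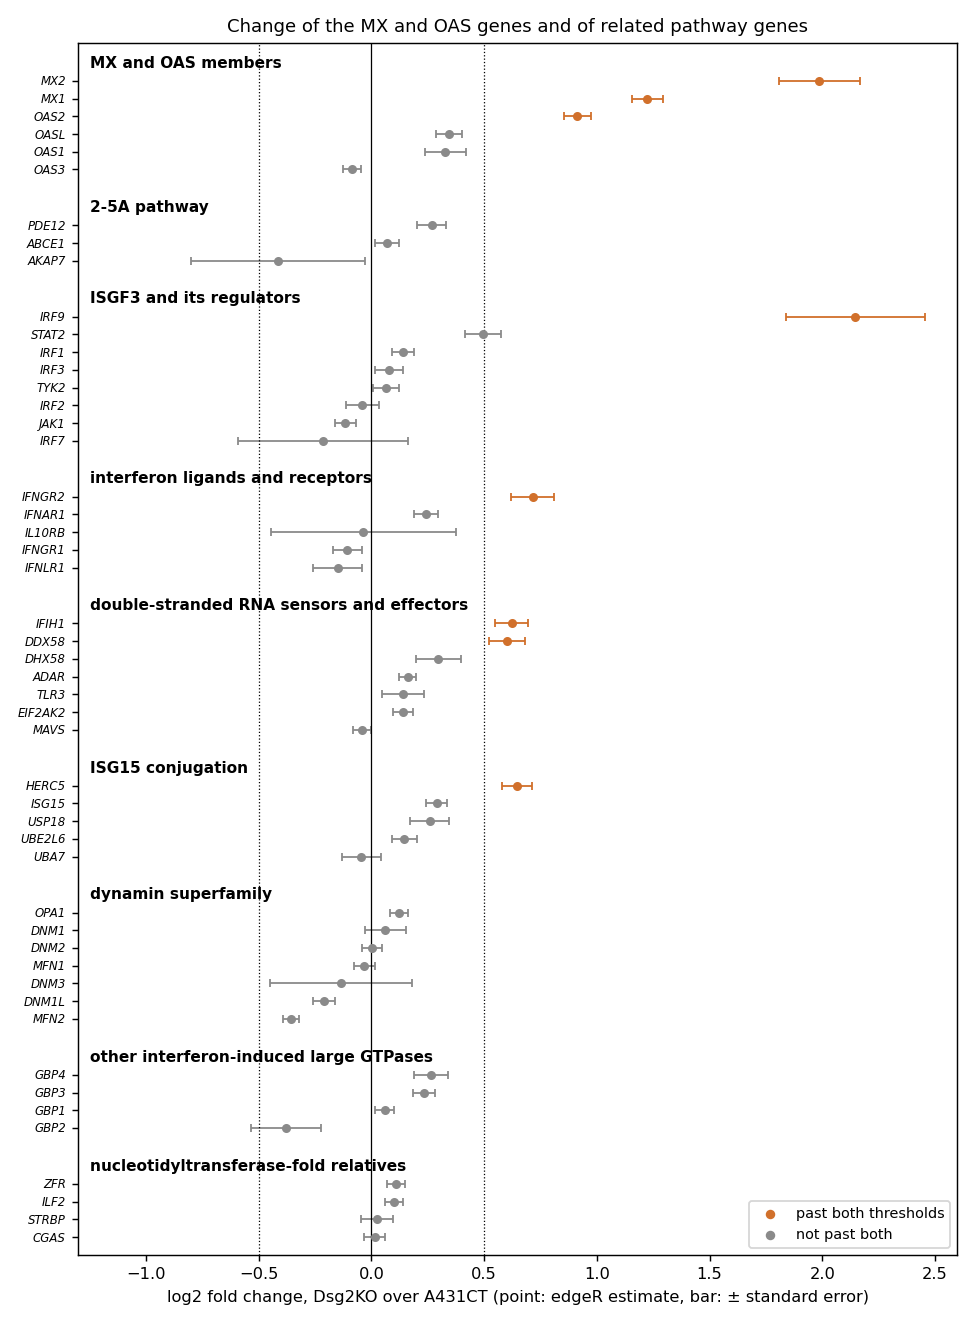
Log2 fold change of Dsg2KO over A431CT cells (horizontal axis) for the 6 members and 43 tested genes of the pathway lists, as edgeR estimate ± standard error. Orange marks genes past both thresholds, dotted lines the fold change minimum of 0.5 in either direction; MX2 and IRF9 lie near 2, and OAS3 lies near 0 at -0.09.

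The members were then set against their chromosomal neighbours. For the 20 tested genes nearest to the OAS1-OAS3-OAS2 cluster (10 on each side, 111.6 to 114.0 Mb) the median log2 fold change was -0.22, and 2 of them were above 0. None passed both thresholds, and 10 were lower by the adjusted p-value alone, where 29.6% of all tested genes passed it in either direction. OAS2 and OAS1 stood above all 20 neighbours, by 1.13 and 0.55 over their median. OAS3 was 0.13 above the median, and 3 neighbours exceeded it. The value for OAS3 was 0.09 without A431CT replicate 2 and 0.18 without A431CT replicate 1.

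Around OASL (120.5 to 121.8 Mb) the 20 neighbours had a median of -0.20, with 1 of them above 0 and 13 lower by the adjusted p-value. Of all tested genes, 29.6% passed that rule and 6.03% passed both thresholds, each in either direction. MORN3 was the 1 neighbour past both thresholds, at -1.12 with an average of only 1.21 CPM. OASL was above all 20, by 0.55 over their median.

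Around MX2 and MX1 (37.4 to 43.0 Mb of chromosome 21) the median of the neighbours was 0.24, 16 of 20 were above 0, and 4 rose past both thresholds: BACE2, the nearest tested gene before MX2, at 0.63, PSMG1 at 0.62, NDUFV3 at 0.61 and the kinase gene RIPK4 at 0.52. Over all tested genes, 2.99% rose past both thresholds. MX2 and MX1 stood above all 20, by 1.75 and 0.99 over the median. With 25 genes on each side the median was 0.40, and MX2 and MX1 were 1.59 and 0.83 above it. The part of these regional differences in the members' change was not tested.

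**Figure D4:**
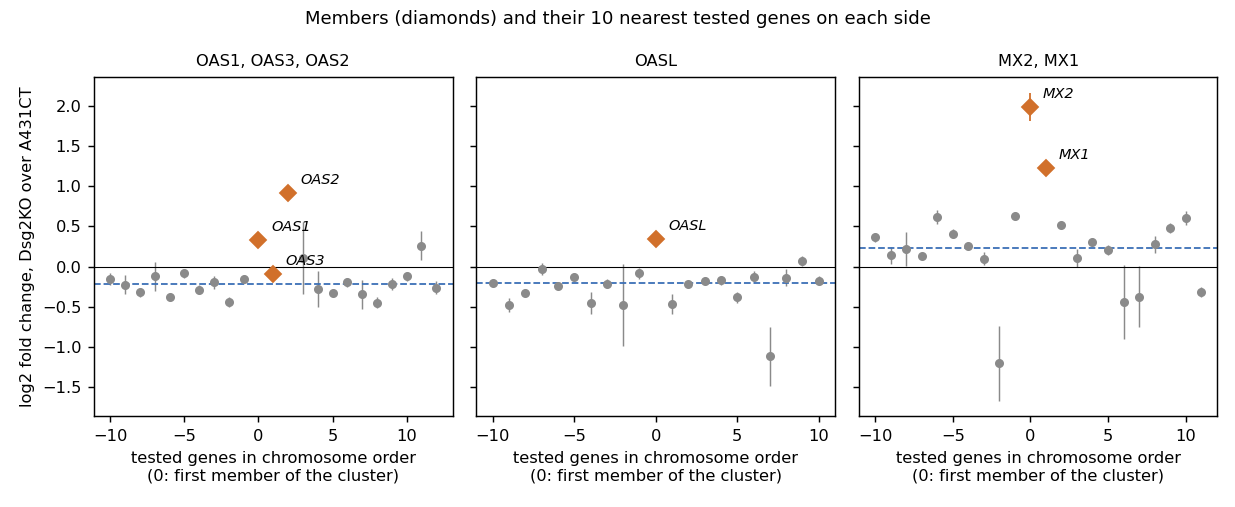
Log2 fold change (vertical axis, ± standard error) of the members (orange diamonds) and of the 10 nearest tested genes on each side (grey), in chromosome order, with the neighbours' median as a dashed line. The medians are -0.22, -0.20 and 0.24 from left to right, and all members except OAS3 lie above all of their neighbours.

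The genes most like the family as a whole were those with the smallest root mean square difference, over the 6 libraries, between their log2 CPM centred on the A431CT mean and the mean centred profile of the 6 members. They were PGM2L1 (0.02), IFIT3 (0.03), MARCKSL1 (0.04), BARX2 (0.05) and PPM1J (0.06), all higher in Dsg2KO cells by 0.75 to 0.82 on the log2 scale. PGM2L1 had 61 to 142 counts per library and PPM1J 55 to 128. Counting error at such counts exceeds these distances, so the order of the genes is not a firm ranking. IFIT3 is itself an interferon-induced antiviral gene, and its level was 236 ± 7.97 CPM in A431CT and 400 ± 15.1 CPM in Dsg2KO cells (SD, n = 3). Of the members, OAS2 was closest to the mean profile (0.10) and MX2 farthest from it (0.82), so that the mean stands for OAS2 better than for the others.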

How the data were processed

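RNA from A431CT and Dsg2KO cells (3 libraries each) was sequenced by the authors as paired-end reads, trimmed, aligned to GRCh38 and counted per gene in CLC Genomics Workbench. The authors deposited the counts as whole numbers, without normalization, and all 6 columns were matched to a sample. The gene annotation and strand setting are not given in the sources used here.

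Counts were fitted over all genes in R 4.3.3 with edgeR 4.0.16: filterByExpr (minimum count of 10, minimum total count of 15), TMM factors, quasi-likelihood F test without covariates, and Benjamini-Hochberg adjustment over the 12857 genes tested. Standard errors are the absolute log2 fold change divided by the square root of F. Log2 CPM used a prior count of 2, except in the ratios between members, which used none. Within a condition, any 2 libraries differed beyond counting error (chi-square 2.66 to 4.20 per degree of freedom). Depth gives a floor of 3 counts, which covers counting error only. In data simulated for this comparison over 12772 genes, 177 of 196 changed genes (90.3%) were recovered and 7 unchanged genes were called. GENCODE version 44 placed 12245 of the tested genes. DESeq2 1.42.0, other filters, scalings and fold change minimums, a replicate block and leaving out each library were the alternatives. Figures used matplotlib 3.10.9.

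The members and lists were chosen with earlier results of these data known. The text names the members, DSG2, list genes past both thresholds and up to 2 others a list by highest mean CPM, neighbours past both thresholds (at most 4 a cluster, by smallest p) and the 5 most similar genes. Other list and marker genes, TMPRSS2 and TMEM50B were named after their values were seen. Some genes of the lists are not reported here.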

Additional observations from a re-analysis of the deposited data

How the results depend on the processing

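In the 13 other fits (filters, scalings, DESeq2, a likelihood ratio test, the replicate block and leaving out each library) 3 members passed both thresholds, and no member changed its direction. OAS1, which passed by the adjusted p-value alone, lost that call without A431CT replicate 3 (adjusted p = 0.0628, edgeR) and without Dsg2KO replicate 2 (adjusted p = 0.0705, edgeR). Among the list genes, IRF9 was not tested where at least 10 counts were asked of every library, since it had 9 in A431CT replicate 1, and IFNAR2 passed without the low-count filter on the counts of 1 library. The fold change minimum moved the counts. Without a minimum 3802 genes, 5 members and 20 genes of the pathway lists passed, and with a minimum of 1 these were 250, 2 and 1. Same-numbered libraries did not deviate together (r of -0.0027, 0.0135 and 0.0539), so the replicate number was used as a replicate block here only, with 769 genes, 3 members and 5 list genes past both thresholds. Measured against 25 neighbouring genes on each side, MX2 and MX1 were 1.59 and 0.83 above the median. When each library was left out in turn, OAS3 was 0.0911 to 0.179 and MX2 1.67 to 1.78 above the median of their nearest neighbours. The repeat with 1 base between its parts, added after the data had been seen, was in 3.12% of promoters. The low counts of MX2 and IRF9 limit the precision of their folds, and interferon messages were too few to compare at this depth.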
